A study of Homo sapiens with 6 samples.

Results

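The desmosome genes are the 10 genes DSP, DSG2, DSG3, DSC2, DSC3, PKP1, PKP2, PKP3, JUP and PERP, chosen by symbol from the 28395 genes of the deposited table, and all 10 were found there. They were measured in HCC827, an established human lung adenocarcinoma cell line with an activating deletion in EGFR, the receptor on which its growth depends. Cells received DMSO, the solvent, or 1 μM erlotinib, an inhibitor of the EGFR kinase, for 24 h, and each treatment gave 3 libraries of poly(A)-selected RNA. Both groups were the same line in the same medium, so the groups differed in the drug alone as far as the labels say. The labels give no separate culture for each library, so p-values measure the spread between these libraries, which may be technical. The DMSO libraries are numbered 1 to 3 and the erlotinib libraries 4 to 6, as the table's columns are.

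Desmosomes are junctions that rivet neighbouring epithelial cells together and anchor their keratin filaments. Desmogleins (DSG genes) and desmocollins (DSC genes) are cadherins that cross the membrane and bind the cadherins of the next cell in the presence of calcium. Inside the cell their tails hold the armadillo proteins, plakoglobin (JUP) and the plakophilins (PKP genes), which in turn hold desmoplakin (DSP), the plakin that binds keratin. PERP is a tetraspan membrane protein of desmosomes. Simple epithelia, including those of the lung, mostly use DSG2, DSC2, PKP2 and PKP3, whereas DSG3, DSC3 and PKP1 are best known from stratified epithelia such as the skin.

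The libraries held between 20760204 and 24641819 reads on genes. Values are signal, which here is the number of reads of a gene divided by 1 size factor per library. Changes were tested by limma on log2(signal + 1) over all 14215 genes whose mean signal reached 10, two-sided, with Benjamini-Hochberg adjusted p-values and a threshold of 0.05. One library stood apart from its group. DMSO library 2 differed from DMSO libraries 1 and 3 with a chi-square per degree of freedom of 23.5 and 14.8 over genes, against 7.74 between DMSO libraries 1 and 3 and between 4.15 and 6.14 among the erlotinib libraries. The change of each tested desmosome gene is therefore also given without it.

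Erlotinib was followed by higher levels of 4 desmosome genes and a lower level of 1. PERP rose 2.65-fold, JUP 2.09-fold, DSC2 1.72-fold and DSP 1.32-fold, while PKP3 fell to 0.715 of its level in DMSO. DSG2, which had the highest signal of the 10 in every library, and DSC3 and PKP2 did not pass the test, and DSG3 and PKP1 were too low to be tested. Without DMSO library 2, 5 members were higher and 1 lower, the added one being PKP2. Of all genes tested, 35.3% were higher and 35.4% lower at the same threshold, so calls were common in this comparison. Genes with many reads were called lower more often: among the 5014 tested genes whose mean signal reached 1000, 28.5% were higher and 50.9% lower, and of the 6 desmosome genes in that range 4 were higher and 1 lower. Only JUP and PERP rose by at least 1 log2 unit, as 17.0% of all genes tested did. The median log2 fold change of the 8 tested members was 0.32, against 0.02 over all genes tested. In 6 of the 8 the groups did not overlap, which held for 73.6% of all genes tested. In bulk RNA, a change in RNA per cell and a change in the share of cells that make it cannot be told apart.

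**Figure D1:**
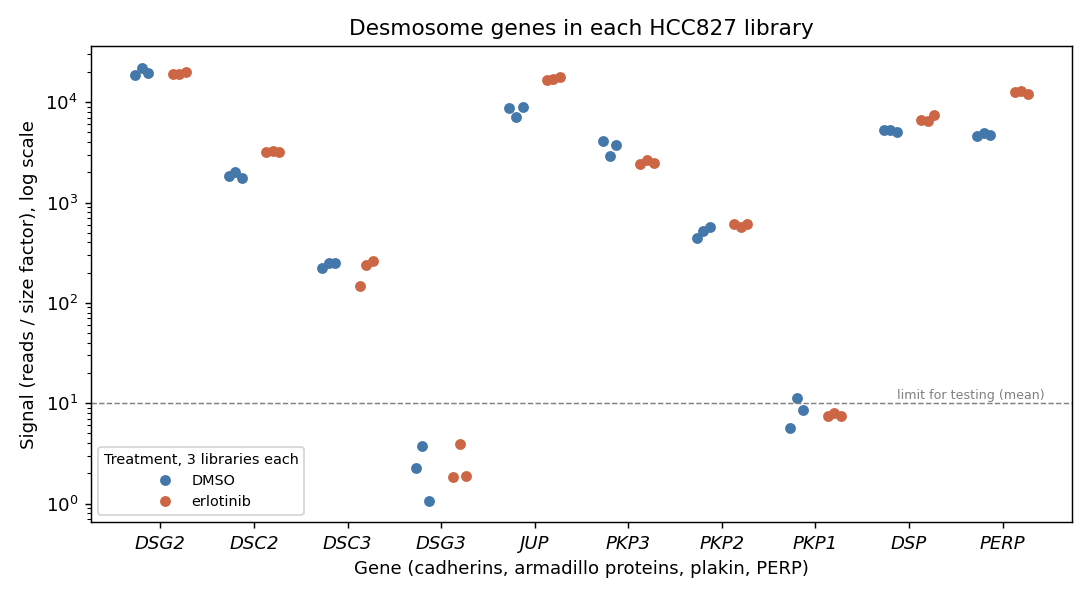
Signal (reads divided by a size factor, log axis) of each desmosome gene in each library, with DMSO libraries in blue and erlotinib libraries in orange, 1 point per library. The points of PERP, JUP, DSC2 and DSP are higher with erlotinib and those of PKP3 lower, with no overlap. Those of PKP2, which did not pass the test, are also higher without overlap, but nearly touch. DSG3 stays under the mean signal of 10 (dashed line) in every library and PKP1 exceeds it only in DMSO library 2.

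The bases before the start sites of the 4 genes called higher are printed here. Whether these genes share a regulator was not tested. They are the 250 bases before the RefSeq start site on GRCh38, 5′ to 3′ on the strand of the gene, at chr6:138107420-138107669 (minus) for PERP, chr17:41786712-41786961 (minus) for JUP, chr18:31102422-31102671 (minus) for DSC2 and chr6:7541421-7541670 (plus) for DSP. Capitals mark every match to 1 of 5 motifs searched on both strands.
PERP: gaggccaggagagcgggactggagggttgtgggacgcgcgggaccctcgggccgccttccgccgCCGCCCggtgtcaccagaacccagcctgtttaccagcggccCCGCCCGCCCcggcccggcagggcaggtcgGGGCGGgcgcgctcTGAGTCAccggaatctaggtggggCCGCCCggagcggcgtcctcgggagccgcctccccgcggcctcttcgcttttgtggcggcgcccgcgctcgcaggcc
JUP: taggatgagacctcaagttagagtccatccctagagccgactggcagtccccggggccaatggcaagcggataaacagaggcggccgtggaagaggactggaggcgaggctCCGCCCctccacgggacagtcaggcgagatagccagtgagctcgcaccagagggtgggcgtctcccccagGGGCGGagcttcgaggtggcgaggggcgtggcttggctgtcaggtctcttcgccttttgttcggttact
DSC2: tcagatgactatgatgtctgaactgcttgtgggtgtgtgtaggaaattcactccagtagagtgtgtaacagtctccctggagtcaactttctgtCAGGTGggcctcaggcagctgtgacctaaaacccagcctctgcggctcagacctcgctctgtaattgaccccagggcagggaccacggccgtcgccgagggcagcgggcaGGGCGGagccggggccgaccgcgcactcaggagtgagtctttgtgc
DSP: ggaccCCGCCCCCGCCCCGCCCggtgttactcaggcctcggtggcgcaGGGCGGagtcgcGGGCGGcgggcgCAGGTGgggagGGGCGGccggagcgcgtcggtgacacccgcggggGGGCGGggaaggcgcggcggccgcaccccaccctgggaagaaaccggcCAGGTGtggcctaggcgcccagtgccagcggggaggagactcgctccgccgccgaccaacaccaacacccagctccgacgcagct
Each window searched ran from 250 bases before to 50 after the start, and 8 of the 10 members had 10 such windows. PKP2 and PKP3 had no window in the promoter set used, so their promoters were not searched. The SP1 motif GGGCGG was in 7 of the 10 member windows, belonging to DSP, DSG2, DSC2, PKP1, JUP and PERP, and in 45.0% of the 35116 windows of all genes. The E-box CAGGTG, the kind of site that the SNAI and ZEB repressors bind, was in 4 of the 10, belonging to DSP, DSG2, DSC2 and a second start of JUP, and in 20.6% of all windows. The AP-1 motif TGANTCA was in the PERP window alone, as TGAGTCA, and in 7.71% of all windows. The TEAD motif GGAATG and the GRHL motif AACNGGTT had no match in a member window and were in 14.0% and 1.73% of all windows. None of the 5 motifs contains another, although neighbouring matches can share bases. The printed bases of PERP and DSP were 77.2% and 78.0% G or C, those of JUP 63.6% and those of DSC2 59.6%, against a median of 58.0% over all windows. DSG2, which did not pass the test, also had matches to SP1 and the E-box. A match here is a run of letters, and no binding was measured.

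Among the cadherins, DSC2 rose and DSG2 did not pass the test. DSG2, the desmoglein of simple epithelia, lies at chr18:31498177-31549008. Its signal was 18544, 22148 and 19489 in DMSO libraries 1 to 3 and 19006, 19324 and 19993.5 in erlotinib libraries 4 to 6. The groups overlapped, with the highest and the lowest value both in DMSO. The means were 20060.5 ± 1869 and 19441 ± 504 (SD, n = 3 each). The log2 fold change was -0.04 with an SE of 0.07, a 95% interval of -0.19 to 0.10 and a limma adjusted p of 0.602. Without DMSO library 2 the log2 fold change was 0.032 and the adjusted p 0.562.

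DSC2, the desmocollin that pairs with DSG2 in simple epithelia, lies at chr18:31058840-31102421 in the same cadherin cluster. Its signal was 1824, 2018 and 1747 in the DMSO libraries and 3159.7, 3246 and 3204 in the erlotinib libraries. Every erlotinib library was above every DMSO library, and the erlotinib values lay close together. The means were 1863 ± 139.8 and 3203 ± 43.2 (SD, n = 3 each), and the log2 fold change of 0.78 (SE 0.07) had a limma adjusted p of 5.0e-09. The log2 fold change was 0.84 without DMSO library 2 and between 0.74 and 0.96 over all 15 alternative settings.

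DSC3 and DSG3 were much lower. DSC3, a desmocollin of stratified epithelia at chr18:30989365-31042742, had a signal of 222, 247 and 252 in the DMSO libraries and 147, 241 and 263 in the erlotinib libraries. The groups overlapped, and erlotinib library 4 was far below the other 5. The log2 fold change was -0.19 with an SE of 0.18, a 95% interval of -0.57 to 0.19 and a limma adjusted p of 0.354, and it was -0.17 without DMSO library 2 and 0.068 without erlotinib library 4. DSG3, the desmoglein targeted by autoantibodies in pemphigus vulgaris, lies at chr18:31447741-31478702. It had 2, 4 and 1 reads in the DMSO libraries and 2, 4 and 2 in the erlotinib libraries. These are too few reads to show a difference.

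Among the armadillo proteins, JUP rose and PKP3 fell. JUP encodes plakoglobin, an armadillo protein of both desmosomes and adherens junctions, and lies at chr17:41754609-41786711. Its signal was 8674, 7167 and 8973 in the DMSO libraries and 16643, 17137 and 17807 in the erlotinib libraries. The groups were far apart, and the lowest value was that of DMSO library 2. The means were 8271 ± 968 and 17196 ± 584 (SD, n = 3 each), and the log2 fold change of 1.06 (SE 0.08) had a limma adjusted p of 7.5e-11. It was 0.96 without DMSO library 2 and between 0.96 and 1.24 over all 15 alternatives.

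PKP3, the most abundant plakophilin in these cells, lies at chr11:392596-404908. Its signal was 4087, 2885 and 3743 in the DMSO libraries and 2442, 2685 and 2455 in the erlotinib libraries. All erlotinib values were lower, but DMSO library 2 lay nearer to them than to the other DMSO libraries. The means were 3572 ± 619 and 2527 ± 137 (SD, n = 3 each), and the log2 fold change of -0.48 (SE 0.10) had a limma adjusted p of 1.3e-04. It was -0.63 without DMSO library 2 and between -0.63 and -0.31 over all 15 alternatives, each with an adjusted p of 0.0070 or less.

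PKP2, the plakophilin of simple epithelia and heart, lies at chr12:32790755-32896777. Its signal was 447, 518 and 574 in the DMSO libraries and 612, 575 and 615 in the erlotinib libraries. The groups just failed to touch, since DMSO library 3 and erlotinib library 5 were nearly equal. The means were 513 ± 63.5 and 601 ± 22.1 (SD, n = 3 each), and the log2 fold change of 0.23 (SE 0.11, 95% interval 0.01 to 0.46) had a limma adjusted p of 0.0595. The adjusted p was 0.0449 without DMSO library 2, where the log2 fold change was 0.25, and 0.278 without DMSO library 1, where it was 0.14. A stretch elsewhere on chromosome 12 matches 91.0% of the PKP2 transcript at 94.0% identity, so some PKP2 reads may not have mapped uniquely and its level is uncertain. PKP1, the plakophilin of stratified epithelia at chr1:201283506-201332989, had 5, 12 and 8 reads in the DMSO libraries and 8 in each erlotinib library. Its mean signal was under 10, and no test was made.

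DSP and PERP both rose. DSP, the linker to keratin, lies at chr6:7541671-7586714. Its signal was 5289.7, 5332 and 5082 in the DMSO libraries and 6715, 6558 and 7492 in the erlotinib libraries. Every erlotinib library was above every DMSO library, with library 6 the highest. The means were 5234 ± 134 and 6922 ± 500.4 (SD, n = 3 each), and the log2 fold change of 0.40 (SE 0.07) had a limma adjusted p of 1.8e-05. It was 0.41 without DMSO library 2 and between 0.34 and 0.58 over all 15 alternatives.

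PERP lies at chr6:138088505-138107419. Its signal was 4618, 4941 and 4674 in the DMSO libraries and 12684, 12858 and 12193 in the erlotinib libraries. The gap between the groups was much wider than the spread within either. The means were 4744 ± 172 and 12578 ± 345 (SD, n = 3 each), and the log2 fold change of 1.41 (SE 0.06) had a limma adjusted p of 3.7e-14. It was 1.44 without DMSO library 2 and between 1.39 and 1.59 over all 15 alternatives. Stretches of chromosomes 15 and 3 match 42.1% and 32.8% of the PERP transcript at 92.1% and 82.2% identity.

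Antisense genes overlap DSG2 and DSC2, and the strand that was counted is not stated in the sources used here. DSG2-AS1 averaged 11.7 in DMSO and 22.1 with erlotinib, and DSCAS 0 and 0.95, both far below their partners. RefSeq also places the noncoding genes DSP-AS1 over DSP and LOC124904345 over DSC3, and these were not analysed here.

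**Figure D2:**
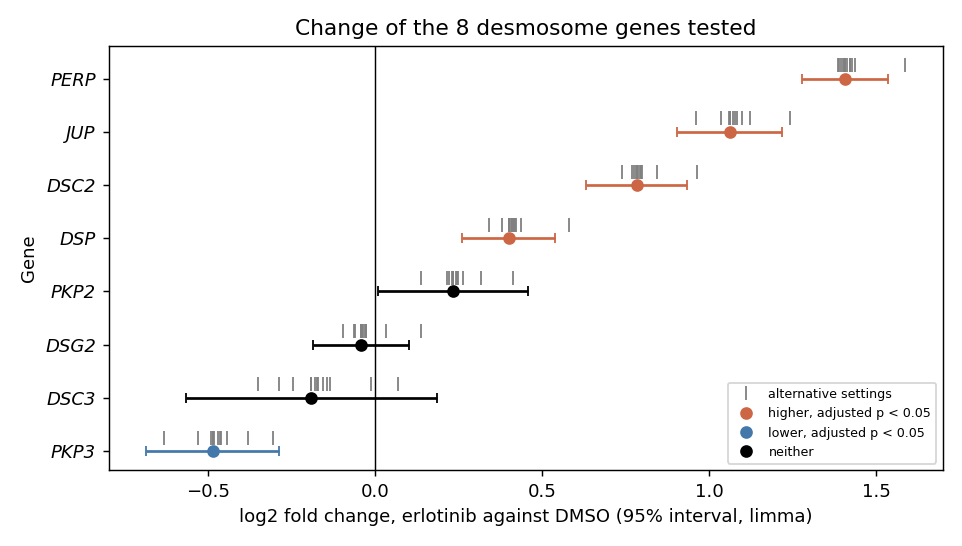
Log2 fold change (erlotinib against DMSO) of the 8 desmosome genes tested, with its 95% interval from limma, and a grey tick for the value under each alternative setting. The ticks of PERP, JUP, DSC2, DSP and PKP3, and those of PKP2, which did not pass the test, all lie on 1 side of 0. Those of DSG2 and DSC3 lie on both sides.

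Scaling each library to its total count in place of the size factor moved the median log2 fold change of all genes from 0.02 to 0.195. On that scale PERP was 1.59, JUP 1.24, DSC2 0.96, DSP 0.58 and PKP2 0.41, all above that shift, DSG2 was 0.14 and DSC3 -0.01, and PKP3 was -0.31. The call of PKP2 changed on that scale, to higher with an adjusted p of 0.0032, and the calls of the other 7 did not.

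To compare levels between genes, signal was divided by the length of the longest protein-coding transcript, in kb. On this scale DSG2 and JUP led the desmosome genes and changed places. In DMSO, DSG2 stood at 3521 ± 328 and JUP at 2360 ± 276 (signal per kb, SD, n = 3 each), and the order was the same in all 3 libraries. With erlotinib, JUP stood at 4906 ± 167 and DSG2 at 3413 ± 88.5, again in all 3 libraries. PKP3 went from 1268 ± 220 to 897 ± 48.5 and PERP from 1130 ± 41.0 to 2996 ± 82.1, and these neighbours did not differ beyond their spread in DMSO, where DMSO library 2 had them in the reverse order. DSP followed with 540 ± 13.8 and 714 ± 51.6 per kb. DSC2 had 150.5 ± 11.3 and 259 ± 3.49, PKP2 118 ± 14.6 and 138 ± 5.08, and DSC3 31.7 ± 2.07 and 28.6 ± 8.14. PKP1 was at 1.55 and 1.40 and DSG3 at 0.42 and 0.46 per kb. The order from DSP down to DSG3 was the same in all 6 libraries. With the union of exons as length, DSG2 was still first and JUP second in DMSO, PERP ranked above PKP3 in every library, and with erlotinib both JUP and PERP ranked above DSG2.

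Against all tested genes with a length, the DMSO level per kb of DSG2 was above 98.2%, that of JUP above 96.5%, that of PKP3 above 92.1% and that of PERP above 90.9%. DSP was above 78.3%, DSC2 above 47.5%, PKP2 above 41.8% and DSC3 above 21.8%. Summed over the 10 members, signal per kb was 9107, 9001 and 9255 in the DMSO libraries and 13082, 13402 and 13575 in the erlotinib libraries, a ratio of the means of 1.46. JUP and PERP were the members with the largest gains per kb.

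**Figure D3:**
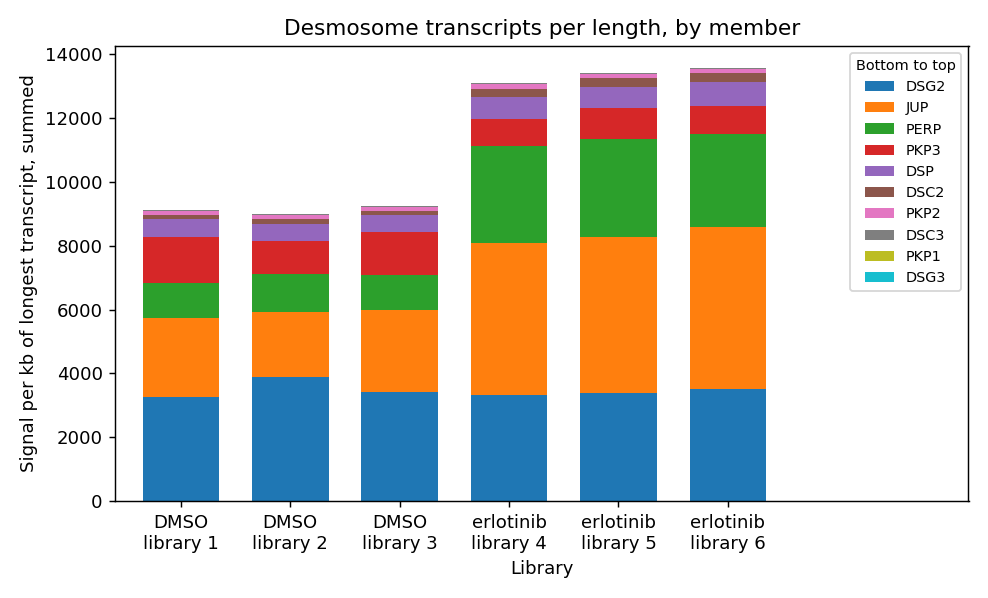
Signal per kb of the longest transcript, summed over the 10 desmosome genes and split by gene (colours, bottom to top in the order of the key), in each library. The 3 erlotinib bars reach 13082 to 13575 and the 3 DMSO bars 9001 to 9255, and the JUP and PERP segments are taller with erlotinib while the PKP3 segment is shorter.

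The make-up of each family was also compared, and the shares themselves were not tested. Of the cadherin signal per kb, DSG2 made up 95.1% ± 0.19 in DMSO and 92.2% ± 0.19 with erlotinib, and DSC2 4.07% ± 0.20 and 7.0% ± 0.17 (SD, n = 3 each). DSC3 was 0.858% and 0.769%, and DSG3 0.0112% and 0.0124%. Of the plakophilin signal per kb, PKP3 made up 91.2% ± 2.0 and 86.5% ± 1.0, PKP2 8.66% ± 1.9 and 13.3% ± 1.0, and PKP1 0.118% and 0.135%. For DSG2, DSC2, PKP3 and PKP2 the shares did not overlap between the groups. The signal of 73.6% of all genes tested did not overlap either. DSG2 with DSC2, and PKP3 with PKP2, make up nearly all of their families, so a rise of either share lowers the other. The signal of DSG2 itself overlapped between the groups. With the union of exons as length the DSC2 share was 6.51% and 11% and the PKP2 share 5.14% and 8.07%, so the shares depend on the length used. Of all 10 members, DSG2 went from 38.6% to 25.6%, PKP3 from 13.9% to 6.72%, JUP from 25.9% to 36.7% and PERP from 12.4% to 22.4%.

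Partners within a family were compared by the difference of their log2 signals in each library. With 3 libraries against 3 the exact permutation test cannot go below 0.1, and p-values were adjusted over the 6 pairs. DSG2 exceeded DSC2 by 3.43 ± 0.07 log2 units in DMSO and by 2.60 ± 0.04 with erlotinib (SD, n = 3 each, two-sided exact p = 0.1, adjusted 0.15). PKP2 was below PKP3 by a log2 difference of -2.79 ± 0.37 in DMSO and -2.07 ± 0.13 with erlotinib (exact p = 0.1, adjusted 0.15). DSC2 exceeded DSC3 by 2.95 ± 0.14 and 3.92 ± 0.44 (exact p = 0.1, adjusted 0.15). In these 3 pairs the groups did not overlap, which the exact p of 0.1 already states. For single genes, the groups did not overlap in 73.6% of all genes tested. The pairs with DSG3 and PKP1 rested on few reads, and their differences changed by -0.16 (exact p = 0.8, adjusted 0.8) and 0.39 (exact p = 0.4, adjusted 0.48).

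JUP and its close relative CTNNB1 moved in opposite directions. CTNNB1 encodes β-catenin, the armadillo protein of adherens junctions and of Wnt signalling. Its signal was 6901, 5648 and 6378 in the DMSO libraries and 4683, 5034 and 4959 in the erlotinib libraries. All erlotinib values were lower, and the log2 fold change was -0.36 (SE 0.07, limma adjusted p 1.6e-04). With total-count scaling it was -0.18, with a limma adjusted p of 0.0243. JUP exceeded CTNNB1 by 0.39 ± 0.09 log2 units in DMSO and by 1.81 ± 0.04 with erlotinib (SD, n = 3 each, exact p = 0.1, adjusted 0.15).

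The remaining genes of the pathway came from 6 lists of 62 genes, of which 55 were tested. Of these, 19 were higher (34.5%) and 22 lower (40.0%), and their median log2 fold change was 0.0077, beside 35.3% higher and 35.4% lower of all genes tested. With total-count scaling 24 were higher and 17 lower. In these lists and the marker lists, 49 genes were called. Without DMSO library 2 all 49 kept their direction and 47 their call, the others being NECTIN2 and ZEB1. Of 8 other genes of the desmosomal families, 5 were tested, 3 were higher and 1 lower, and the median was 0.35. DSG1, a desmoglein of the upper skin layers, measured 46.5, 26.9 and 23.5 in the DMSO libraries and 90.4, 47.5 and 67.4 in the erlotinib libraries, and rose by 1.07 on the log2 scale (limma adjusted p 0.0060). The nearest values of its groups, 46.5 and 47.5, almost touched, and without erlotinib library 4 the log2 fold change was 0.85 with an adjusted p of 0.057. The plakins PPL (periplakin) and EVPL (envoplakin), which like DSP tie junctions to keratin, rose by 0.94 and 0.35. Without DMSO library 2 the value of EVPL was 0.21, with an adjusted p of 0.0021. PKP4, a relative of the plakophilins found mainly at adherens junctions, fell by 0.17 on the log2 scale, but its log2 fold change was 0.0067 with total-count scaling. CDSN, which encodes corneodesmosin, is listed at 0 in every library. Its sequence is also present on alternate contigs of chromosome 6 at 99.0% identity or more, so unique mapping may have missed its reads.

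The keratins that desmosomes anchor did not rise. Of 11 keratin genes 10 were tested, 0 were higher and 5 lower at the limma threshold, and their median log2 fold change was -0.28. None was higher at an unadjusted p under 0.05, by edgeR or by DESeq2 either (0 in each case). KRT18, KRT8 and KRT7 fell, with log2 fold changes of -1.25, -0.83 and -0.63, and so did KRT19 and KRT80, with -0.39 and -0.17. KRT80 lost its call without DMSO library 1 or 3 or erlotinib library 4, where the adjusted p was 0.1, 0.0612 and 0.171, and also with no filter or a threshold of 0.01, and its log2 fold change was 0.0080 with total-count scaling. KRT8 and KRT18 form the filaments of simple epithelia, and in DMSO KRT7 was the most abundant gene of the list with a mean signal of 123686. KRT5, KRT6A, KRT14, KRT16 and KRT17, keratins of stratified epithelia, did not pass the test. Without DMSO library 1, which was the lowest of the DMSO libraries for both, KRT5 and KRT6A were called lower, with log2 fold changes of -0.48 and -1.23 against 0.07 and -0.65. The 5 that were lower had the highest signal of the list, and 50.9% of all tested genes whose mean signal reached 1000 were lower.

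The neighbouring junctions were mixed. Of 10 adherens junction genes 6 were higher and 3 lower, with a median of 0.21. Between 4 and 6 were higher when 1 library was left out: NECTIN2 (log2 fold change 0.23) lost its call without DMSO library 2 or 3 or erlotinib library 5 or 6, and AFDN (0.18) without DMSO library 1 or 3 or erlotinib library 4 or 6. Without DMSO library 2 the value of NECTIN2 was 0.14. The largest rise was that of NECTIN4, an adhesion molecule of the nectin family, from 95.3, 85.4 and 76.0 in DMSO to 482, 474 and 491 with erlotinib, a log2 fold change of 2.49. NECTIN1 fell by 1.36 on the log2 scale, and VCL, which encodes the actin linker vinculin, had a log2 fold change of -0.46. CDH1, which encodes E-cadherin, had a log2 fold change of 0.14 and a limma adjusted p of 0.0531. It passed the threshold as higher by edgeR and by DESeq2. In limma it passed with TMM factors (adjusted p 0.025) and with a pseudocount of 0.1 (adjusted p 0.0463). It also passed in limma with total-count scaling (0.32, adjusted p 9.0e-05) and without DMSO library 2 (0.17, adjusted p 0.0035). Of 9 genes of hemidesmosomes, the junctions that tie keratin to the basement membrane, 2 were higher and 4 lower, with a median of -0.14. COL17A1 rose by 1.52 and ITGB4 by 0.84, whereas ITGA6, the integrin chain that pairs with ITGB4, fell by 1.98 on the log2 scale. PLEC and LAMB3 were also lower, with log2 fold changes of -0.51 and -0.34.

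**Figure D4:**
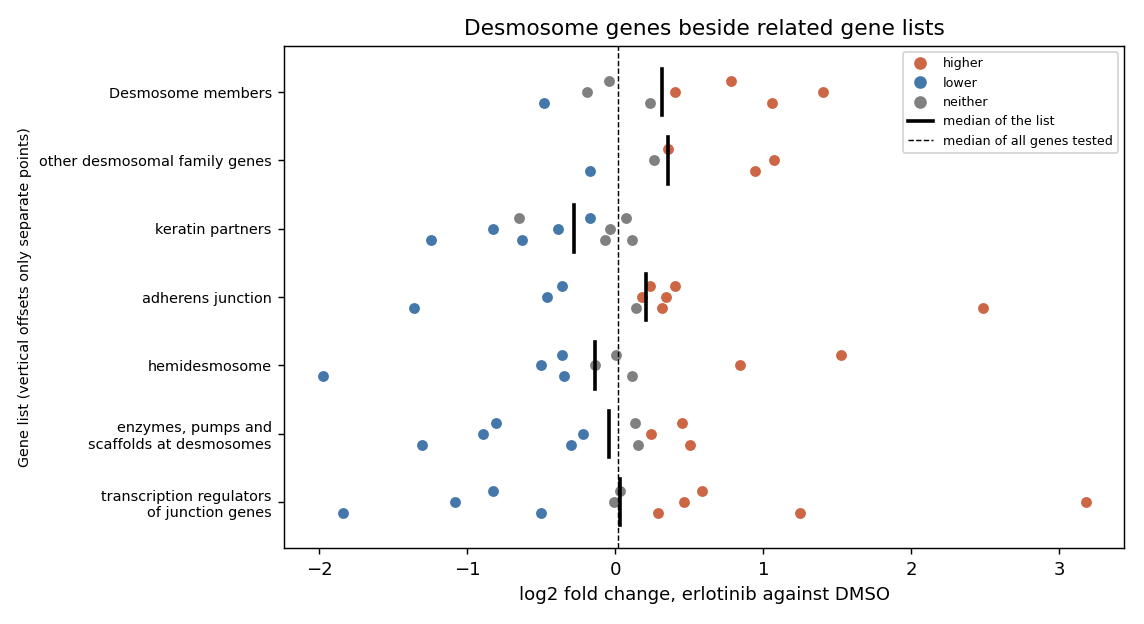
Log2 fold change (erlotinib against DMSO) of each tested gene, for the members and 6 lists, with orange for higher, blue for lower and grey for neither, a bar at the median of each list and a dashed line at the median of all genes tested. The medians of the desmosome members (0.32) and of the other family genes (0.35) are right of the line, and that of the keratins (-0.28) is left of it.

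Of 11 kinases, proteases, pumps and scaffolds that act on desmosomes 10 were tested, 3 were higher and 5 lower, with a median of -0.04. CAV1, the coat protein of caveolae, had a log2 fold change of -1.31, the arginine methyltransferase PRMT1 -0.90, EGFR itself -0.81 and the calcium pump genes ATP2C1 and ATP2A2 -0.30 and -0.22. The pump genes were at -0.12 and -0.036 with total-count scaling and did not pass the test there. SRC, FLOT2 and PRKCA were the 3 that were higher, with 0.51, 0.45 and 0.24. ADAM10 and ADAM17, proteases that shed cadherins, had log2 fold changes of 0.14 and 0.15 and did not pass the limma test. Both passed it without DMSO library 2 (0.21 and 0.16) and with total-count scaling (0.32 and 0.33), and ADAM17 also passed by edgeR and with TMM factors in limma. FLOT1 is listed at 0 in every library, and its transcript matches alternate contigs of chromosome 6 in full.

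Of 13 transcription regulators known to act on junction genes 11 were tested, 5 were higher and 4 lower, with a median of 0.03. GRHL3, a grainyhead factor of epithelial barriers, went from 22.7, 15.8 and 8.56 in DMSO to 141, 143 and 139 with erlotinib, a log2 fold change of 3.18. GRHL2 rose by 0.46 and KLF5 by 0.29. The repressors SNAI1, SNAI2 and ZEB1 fell, with log2 fold changes of -1.84, -1.08 and -0.50, and KLF4 with -0.83. The call of ZEB1 (adjusted p 0.0255) was lost with total-count scaling, no filter or a threshold of 0.01, and without DMSO library 2 or 3 or erlotinib library 5 or 6, at log2 fold changes from -0.52 to -0.33. TP63, a regulator of PERP in stratified epithelium, averaged 52.9 in DMSO and 53.9 with erlotinib and did not pass the test.

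Markers of cell types were checked in the same libraries. Of 6 epithelial markers 0 were higher in the main limma fit and 4 lower, all 4 of them keratins. At an unadjusted p under 0.05, by edgeR and by DESeq2, 1 was higher, CDH1. CDH1 also passed the adjusted threshold in some limma alternatives, among them TMM factors (adjusted p 0.025) and leaving out DMSO library 2 (0.0035). EPCAM went from 9852 to 9485 with a limma adjusted p of 0.429. The alveolar markers NKX2-1 and NAPSA rose by 1.53 and 1.92, and the summed signal of the 5 genes of that list was 3916, 3804 and 4271 in DMSO and 12746, 12035 and 12409 with erlotinib. Their part in the desmosome changes was not tested. The surfactant genes SFTPB, SFTPC and SFTPA1 were too low to be tested.

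DSG3, DSC3 and PKP1 are known from stratified epithelium, whose other markers were checked too. The 5 basal and squamous markers summed to 653, 670 and 818 in DMSO and 658, 557 and 544 with erlotinib, led by KRT15 with a mean of 433.7, and 4 were tested, 0 higher and 1 lower. The lower one was KRT15, with a log2 fold change of -0.41, and it lost its call with total-count scaling (-0.23, adjusted p 0.0908). The 10 markers of cornifying keratinocytes summed to 1424, 1692 and 1656 in DMSO and 1022, 1016 and 975 with erlotinib, nearly all of it KRT10. LOR and KRT1 were at 0 in all 6 libraries, and 2 of the 4 tested genes were lower. In both lists 0 genes were higher by limma, also at an unadjusted p under 0.05, by edgeR and by DESeq2.

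Markers of other cells were near the floor in most cases. Of 6 fibroblast markers 1 was tested, COL1A1, which rose by 1.47. It led the summed signal of 73.7, 75.2 and 109 in DMSO and 260.2, 223 and 215 with erlotinib. DCN, COL1A2 and COL3A1 had 3 reads or fewer in any library. LUM, too low to be tested, had 2, 4 and 6 reads in the DMSO libraries and 10, 10 and 20 in the erlotinib libraries. Of 4 leukocyte markers CD68 alone was tested and rose by 0.23 (adjusted p 0.0514 without erlotinib library 5), and PTPRC had 6 reads or fewer in any library. Of 3 endothelial markers VWF rose by 2.74 (1.44 with a pseudocount of 10), and the list summed to 34, 15.8 and 20.3 in DMSO and 58.1, 42.6 and 43.1 with erlotinib. The part of these genes in the desmosome changes was not tested.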

How the data were processed

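RNA of HCC827 cells was sequenced as paired-end reads in 6 libraries. The authors mapped reads to GRCh38 with Bowtie2 2.3.4 and featureCounts 1.6.3 assigned the uniquely mapped ones to genes. The table holds signal as deposited by the authors: each value is a read count divided by 1 size factor per library, since 100% of values were whole multiples of the library's step (tolerance 0.1 reads), and the factors were 0.9958 to 1.003 of those from DESeq2 1.42.0. An aligner that, like Bowtie2, makes no spliced alignments can lose reads over exon junctions, which bears on levels compared between genes.

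Signal was tested by limma 3.58.1 (R 4.3.3, variance trend) on log2(signal + 1), erlotinib against DMSO, over all genes whose mean signal reached 10. Fold changes are on that scale, which understates those of low genes. Counts recovered from the deposited table were tested by edgeR 4.0.16 (quasi-likelihood) and DESeq2 as alternatives. Other alternatives were TMM and total-count scaling, pseudocounts of 0.1 and 10, no filter, at least 10 reads in every library, a threshold of 0.01, and leaving out each library. The limma step was also tested on simulated data, whose outcome is not reported here.

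A floor of 3 reads is a signal of 2.77 to 3.40, for counting error only. Lengths are of the longest protein-coding transcript of GENCODE release 44, which covered 94.1% of tested genes. Copies were searched with minimap2 2.31-r1302. Positions and start sites are from RefSeq on GRCh38. Proteins were not analysed here. The erlotinib columns could be matched to their group only. Columns left unused numbered 0.

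All members and, in each list, the up to 3 called genes with the largest change, every called gene past 1 log2 unit, and CTNNB1 were named by rule. Of 7 lists, 1 and a few genes of the others are not reported here, and counts over the related lists leave that 1 out. Other genes named from the lists were chosen after their values were seen. The members and lists were chosen with earlier results of these data known.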

Additional observations from a re-analysis of the deposited data

How the results depend on the processing

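PERP, JUP, DSC2, DSP and PKP3 kept their direction and their side of the threshold in all 15 alternatives. DSG2, not called in any of them, turned to 0.14 with total-count scaling (adjusted p 0.0828) and to 0.032 without DMSO library 2, and DSC3 turned to 0.068 without erlotinib library 4 (adjusted p 0.724). Leaving out 1 library at a time gave -0.096 to 0.032 for DSG2 and -0.35 to 0.068 for DSC3. PKP2 passed the threshold with TMM factors in limma (0.25, adjusted p 0.0478), with total-count scaling (0.41, adjusted p 0.0032), and without DMSO library 2 (0.25) or 3 (0.32, adjusted p 0.0208). The cause of these changes was not tested. Total-count scaling gave 6156 genes higher and 3955 lower, against 5012 and 5031. It also moved the hemidesmosome genes called higher from 2 to 4 and the kinases, proteases and pumps from 3 higher and 5 lower to 5 and 3. Some genes kept their calls on that scale but moved by over 1.5 times. Among those lower, VCL was at -0.28, PLEC at -0.33, LAMB3 at -0.16, KRT19 at -0.21 and CTNNB1 at -0.18. Among those higher, EVPL was at 0.53, PRKCA at 0.42, KLF5 at 0.47, NECTIN2 at 0.41, AFDN at 0.36 and CD68 at 0.41. Without DMSO library 2, 5 of the kinases, proteases and pumps were higher. PKP4, the only other family gene called lower, lost that call with total-count scaling, at an adjusted p under 0.01, and without DMSO library 3 or any 1 of the erlotinib libraries. The MANE Select transcript as length, chosen after seeing the data, moved 1 share by more than the spread between libraries, that of PKP1 in the plakophilins with erlotinib, from 0.135% to 0.137%. No paired analysis was possible because the erlotinib columns carry no replicate number of the labels. DSG3 and PKP1, with 12 reads or fewer per library, are limited by depth.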

Other observations

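DSC1 and DSG4, the remaining cadherins of the desmosomal cluster, were not tested. DSC1 had 0 reads in each DMSO library and 7, 0 and 4 in the erlotinib libraries, and DSG4 had 0 in each DMSO library and 2, 2 and 1 in the erlotinib libraries. KAZN, which encodes kazrin, a partner of periplakin, averaged 35.1 in DMSO and 42.6 with erlotinib and did not pass the limma test (adjusted p 0.448). SPRR1B, a cross-linked envelope protein gene of keratinocytes, fell by 1.70 on the log2 scale, from a mean signal of 72.2 to 22.1, while the envelope plakins PPL and EVPL rose. The summed signal of the 10 desmosome genes was 0.193% ± 0.0072 of all signal in the DMSO libraries and 0.308% ± 0.0067 in the erlotinib libraries (SD, n = 3 each). The sum itself was 43714, 45271 and 44543 in the DMSO libraries and 61418, 62635 and 64033 in the erlotinib libraries. The share rose more than the sum because the total signal was lower in every erlotinib library.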
